A study of Homo sapiens with 40 samples.

Results

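The CDK inhibitor genes encode the proteins that hold back the cyclin-dependent kinases, and the 7 members examined were CDKN1A, CDKN1B, CDKN1C, CDKN2A, CDKN2B, CDKN2C and CDKN2D, of 19676 protein-coding genes in GENCODE 44. A ChIP-seq peak was given to a gene when it lay within 2 kb of a start site of its protein-coding transcripts (promoter), otherwise in its gene record (gene body), otherwise when that start site was the nearest of all protein-coding genes within 100 kb (distal). This gave 20 of 51489 H3K27ac peaks and 21 of 51457 CTCF peaks. The same rule gave 5 of 14886 enhancers listed in non-senescent cells, 5 of 13076 listed in senescent cells and 0 of 2435 regions of senescence-specific Rb binding.

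EndoC-βH3 is 1 human beta-like cell line of fetal pancreatic origin. All cells carried excisable immortalizing transgenes, SV40 large T antigen among them, and a CreER recombinase, and their genotype was labelled WT. Untreated cells were the non-senescent control, and senescence was induced with 4-hydroxytamoxifen for 3 weeks, which activates the recombinase. The histone mark H3K27ac, found on promoters and enhancers in use, and the insulator protein CTCF, which anchors chromatin loops, were each measured in 3 control and 3 senescent libraries. H3K4me1, an enhancer mark, and the retinoblastoma protein Rb were measured in 2 and 2, each library with its own input, 40 libraries in all. Nothing used here says that replicates were separate cultures, so the spread may be technical. The deposited tables give 1 mean and 1 fold change per peak and no value per library. For this reason, no value per replicate is shown, and errors are those of the deposited fold change.

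The 2 families of inhibitors act at different points. The Cip/Kip proteins p21 (CDKN1A), p27 (CDKN1B) and p57 (CDKN1C) bind cyclin-kinase complexes of several kinds. The INK4 proteins p16 (CDKN2A), p15 (CDKN2B), p18 (CDKN2C) and p19 (CDKN2D) bind CDK4 and CDK6 and keep D-type cyclins from activating them, which leaves the pocket proteins of the Rb family able to restrain E2F factors. CDKN2A has a further first exon, which encodes ARF, an inhibitor of the ubiquitin ligase MDM2. In beta cells p16 is known to accumulate with age. SV40 large T antigen binds and disables the pocket proteins.

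The bases just upstream of the start were compared for the genes whose promoter peaks moved most in either direction, CDKN1A (gained) and CDKN2D (lost). Both are shown as the 250 bases before the RefSeq start (GRCh38.p14), with each GC box, the letters GGGCGG on either strand, in capitals. This motif was chosen after the promoters had been read, and GC boxes may overlap:
CDKN1A, chr6:36678464-36678713, plus strand: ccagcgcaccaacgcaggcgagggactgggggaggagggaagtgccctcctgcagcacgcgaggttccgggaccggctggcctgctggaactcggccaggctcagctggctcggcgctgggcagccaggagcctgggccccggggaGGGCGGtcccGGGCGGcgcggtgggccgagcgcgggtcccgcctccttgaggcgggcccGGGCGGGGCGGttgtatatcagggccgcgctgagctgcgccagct
CDKN2D, chr19:10568980-10569229, minus strand: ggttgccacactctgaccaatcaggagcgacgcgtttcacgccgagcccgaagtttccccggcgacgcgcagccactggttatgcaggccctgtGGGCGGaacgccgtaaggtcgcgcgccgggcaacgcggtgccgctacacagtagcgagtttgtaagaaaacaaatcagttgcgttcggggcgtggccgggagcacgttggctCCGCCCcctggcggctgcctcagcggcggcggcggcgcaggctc
The CDKN1A sequence held 4 GC boxes and the CDKN2D sequence 2. The number of GC boxes did not follow the calls over the members: 1 of the 3 CDKN2C promoters held 5 and the CDKN2B promoter held 2, and neither gene had a called promoter peak. Of 35116 RefSeq promoters in the table used, 42.6% held at least 1 and 7.63% held at least 4. The E2F core TTTNGCGC, searched on both strands, was not found in the 300-base promoters of CDKN1A and CDKN2D, and 1.79% of all promoters in that table held it.

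Of the 20 H3K27ac peaks of the members, 4 were gained and 2 were lost in senescent cells, where a call needs both a fold change over 1.5, which is 0.58 on the log2 scale, and an adjusted p below 0.05 in the authors' deposited test. Over all H3K27ac peaks, 9.47% were gained and 13.1% were lost. The median log2 fold change of the 20 peaks was -0.10, against 0.01 over all peaks, with 9 positive and 11 negative values. The 4 gains lay at CDKN1A and CDKN1C, and the 2 losses at CDKN2D and within CDKN2B-AS1 beyond CDKN2B. At the strongest promoter peak of each gene, 2 of the 7 members were gained and 1 was lost, while 3.15% of 13059 protein-coding genes were gained and 8.94% were lost. The median of these 7 peaks was -0.16 and that of the 13059 genes was 0.04. For CDKN2A the strongest was the ARF-start peak (-0.16), not the p16-start peak (0.25, not called). The shares of the members rest on few peaks, and the choice of the genes was made with earlier results known.

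**Figure D1:**
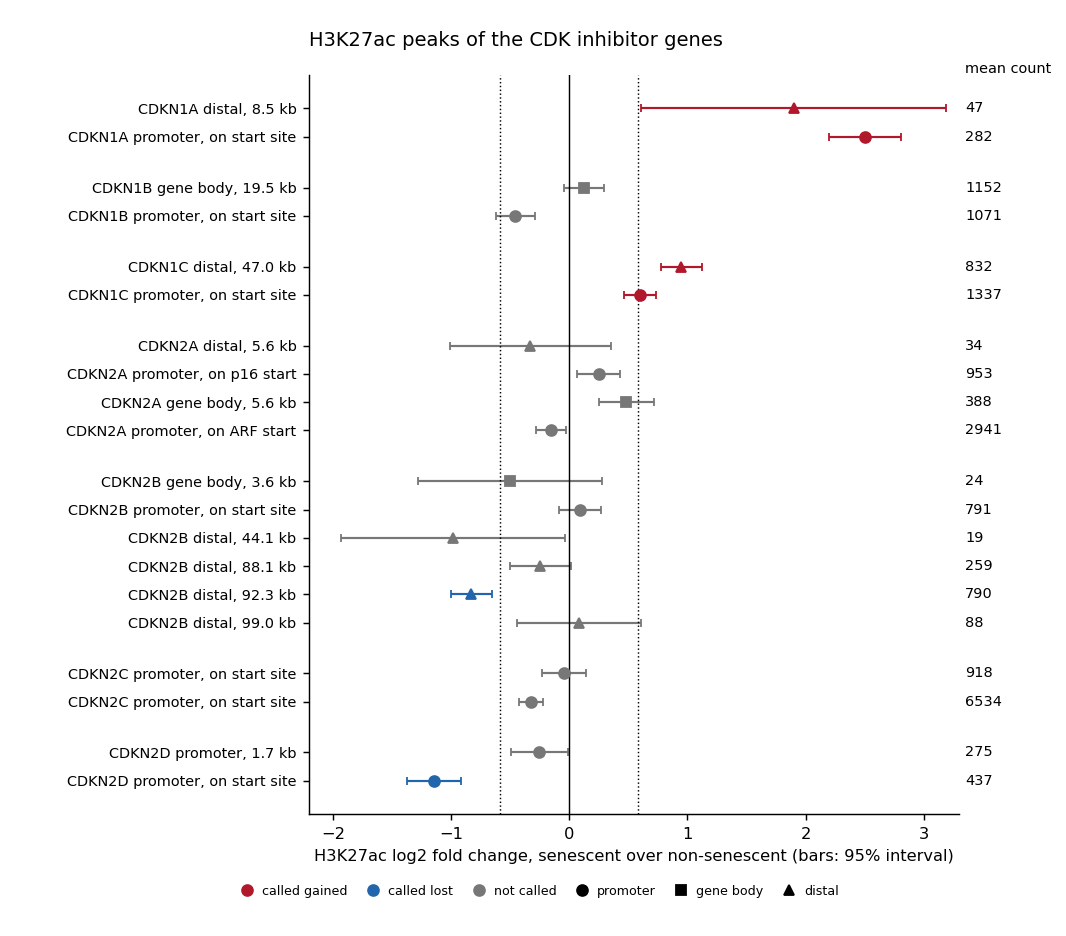
H3K27ac log2 fold change, senescent over non-senescent, at the 20 peaks of the 7 CDK inhibitor genes, with bars for the 95% interval and the mean normalised count at the right. Dotted lines mark a fold change of 1.5. Both CDKN1A and both CDKN1C peaks lie to the right of the dotted line, and the called losses are the CDKN2D start-site peak and 1 distal peak of CDKN2B.

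CDKN1A had the highest fold gain of H3K27ac of the 7 genes, while in counts the implied rise was greater at both CDKN1C peaks. The CDKN1A promoter peak (chr6:36675544-36680285, covering all 5 protein-coding start sites and the start of the antisense transcript DINOL) rose 5.66-fold, with a 95% interval of 4.57 to 7.01, a log2 fold change of 2.50 (SE 0.16, 3 and 3 libraries) and an adjusted p of 5.09e-54. The deposited mean of 281.5 normalised counts and this fold change imply a mean of about 84.5 in non-senescent and 479 in senescent cells. Averaged over both states, the mark at this promoter was sparse for its length beside other promoters. At 59.4 counts per kb, the level stood at the 7.22th percentile of the strongest promoter peaks of all genes. Among all H3K27ac peaks it stood at the 43.5th percentile. Of the 13059 genes, 3 had a higher log2 fold change at their strongest promoter peak. They were PHLDA3 (2.91), BBC3 (2.64) and PTCHD4 (2.58), which were looked up after the count was seen. BBC3 encodes the death-promoting protein PUMA, and PHLDA3 encodes a repressor of AKT. The standard error of the CDKN1A promoter peak was higher than that of 98.9% of peaks with a like mean count (median 0.13). In cells measured in bulk, a change in the share of cells that carry the mark and a change per cell cannot be told apart.

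A second CDKN1A peak lay in intergenic sequence 8484 bp upstream of the nearest start site (chr6:36666580-36667976). Its log2 fold change was 1.90 (SE 0.66, adjusted p = 0.013), with a 95% interval of the fold change from 1.52 to 9.11. The mean was 46.7 normalised counts and the implied means were 19.8 and 73.7. The standard error exceeded that of 99.9% of peaks of like count, whose median was 0.30. Since the tables hold no value per library, whether 1 library carries this gain was not tested. In a test against a fold change of 1.5 in place of no change, the adjusted p was 0.536 and the call was lost. Neither of the CDKN1A peaks overlapped a listed enhancer.

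CDKN1B and CDKN1C, the other Cip/Kip genes, had promoter values of opposite sign, and CDKN1C alone of these was called. At the CDKN1B promoter (chr12:12713757-12720237) the log2 fold change was -0.46 (SE 0.083, adjusted p = 4.23e-07). The fold change of 0.73, with an interval of 0.65 to 0.82, did not reach the limit of a call, and the implied means were 1239 in non-senescent and 903 in senescent cells. The other CDKN1B peak (chr12:12695252-12697876) covers the start of the neighbouring gene GPR19 and of a CDKN1B transcript that encodes no protein. Its log2 fold change was 0.13 (SE 0.087, adjusted p = 0.257), with an interval of -0.05 to 0.30. This peak held the E2F core TTTNGCGC at 2 overlapping places on opposite strands, with starts 6 bases apart. The motif was found in 4.26% of peaks cut to the same length of 2625 bp. It is printed from hg38, plus strand, with the first core in capitals:
chr12:12696187-12696214: gttttgaaacTTTTGCGCgctaaaaatg
The core was in no other H3K27ac peak of the members except the broad peak of CDKN2C.

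CDKN1C was gained at its promoter and at a distant enhancer. The promoter peak (chr11:2880310-2887033, covering the gene) had a log2 fold change of 0.60 (SE 0.069, adjusted p = 1.69e-16), and the implied mean rose from 1064 to 1611. This is a 1.51-fold change with an interval of 1.38 to 1.66, which includes the limit of 1.5, and the promoter call was lost in the test against a fold change of 1.5 (adjusted p = 1.00). The distal peak (chr11:2834984-2838702) lay 47026 bp from the start site in an intron of KCNQ1, a potassium channel gene, and carried a listed enhancer in both states. Its log2 fold change was 0.95 (SE 0.087, adjusted p = 1.24e-25) and its implied mean rose from 568 to 1096. CDKN1C and KCNQ1 lie in an imprinted domain, and these counts do not separate the parental copies.

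The CDKN2A and CDKN2B locus showed small shifts of mixed sign near the start sites. At the p16 start (chr9:21973049-21977216) the log2 fold change was 0.25 (SE 0.094, adjusted p = 0.023), and the implied mean was 870.5 in non-senescent and 1035 in senescent cells. At the ARF start (chr9:21989862-21997537), a peak shared with the start of the antisense transcript CDKN2B-AS1, it was -0.16 (SE 0.066, adjusted p = 0.0495), with implied means of 3099 and 2783. Both passed the adjusted p limit, with opposite signs and folds of 1.19 and 0.90, and neither was called. Their 95% intervals, 0.07 to 0.43 and -0.28 to -0.03, did not overlap. Between the 2 starts, an intronic peak with a listed enhancer in both states (chr9:21985716-21988771) had a log2 fold change of 0.48 (SE 0.12, adjusted p = 0.000226), below the fold limit. The remaining CDKN2A peak, 5571 bp from the nearest start, had a mean of 34.0 counts and a log2 fold change of -0.33 (adjusted p = 0.476).

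At the CDKN2B promoter (chr9:22006681-22010337) the log2 fold change was 0.09 (SE 0.091, adjusted p = 0.426), with an interval of -0.08 to 0.27. The implied means were 765 and 816.5. Along CDKN2B-AS1, the long antisense gene that begins near the ARF start and runs across CDKN2B and beyond it, 4 more peaks were nearest to CDKN2B. The strongest of them (chr9:22101611-22106837), 92306 bp away with a listed enhancer in both states, was lost. Its log2 fold change was -0.83 (SE 0.088, adjusted p = 3.7e-19) and its implied mean fell from 1011 to 569. Against a fold change of 1.5 its adjusted p was 0.108. The other 3 distal peaks and the gene-body peak of CDKN2B had log2 fold changes between -0.98 and 0.08 and were not called. Of these, the peak furthest from the gene carried an enhancer listed in non-senescent cells alone (chr9:22108769-22109956), although its H3K27ac log2 fold change was 0.08 (SE 0.27).

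**Figure D2:**
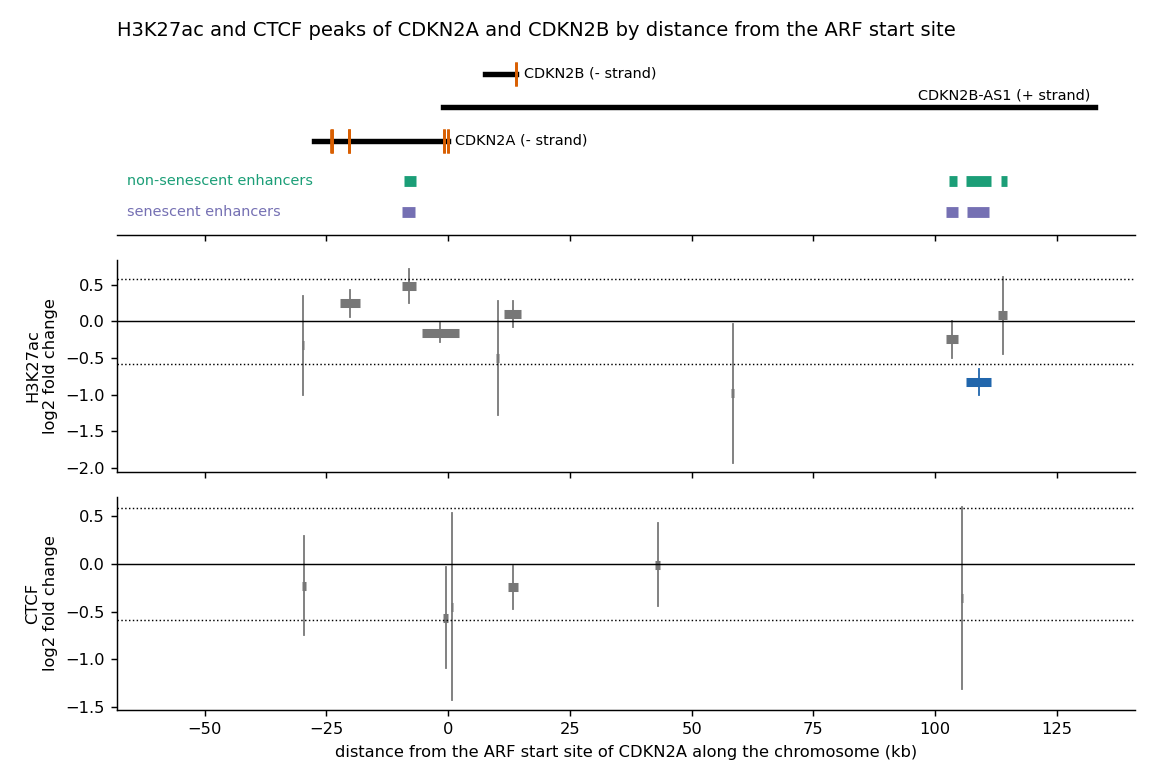
Peaks of CDKN2A and CDKN2B by distance from the ARF start site in kb, with gene records in black, start sites of protein-coding transcripts in orange and listed enhancers in green and violet. Horizontal bars are peaks at their log2 fold change, senescent over non-senescent, and vertical bars are 95% intervals. The p16-start peak sits at 0.25 and the ARF-start peak at -0.16, and the 1 called loss, at -0.83 in blue, lies within CDKN2B-AS1.

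CDKN2C carried the widest H3K27ac peak of the 7 genes, with the highest total count but not the highest count per kb. It spanned 21284 bp (chr1:50966423-50987706), covered 2 of the 3 CDKN2C start sites, and had a mean of 6534 counts. Its log2 fold change was -0.32 (SE 0.052, adjusted p = 7.42e-09), a fold of 0.80 with an interval of 0.75 to 0.86, so it passed the adjusted p limit but not the fold limit. At its far end lay an enhancer listed in senescent cells alone (chr1:50985254-50987566). The first start site of the gene shares its peak (chr1:50958387-50962017) with FAF1 on the other strand, and there the log2 fold change was -0.05 (SE 0.095, adjusted p = 0.728).

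CDKN2D was the member that lost H3K27ac at its start site. The peak on the start (chr19:10567973-10570581) fell to 0.45 of its non-senescent level, with an interval of 0.39 to 0.53, a log2 fold change of -1.14 (SE 0.12) and an adjusted p of 6.66e-21. Its implied mean fell from 602 to 273. A neighbouring promoter peak on the start of KRI1 (chr19:10564525-10567271) had a log2 fold change of -0.26 (SE 0.12, adjusted p = 0.086). Among all genes, 372 of 13059 had a lower value at the strongest promoter peak than CDKN2D.

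**Figure D3:**
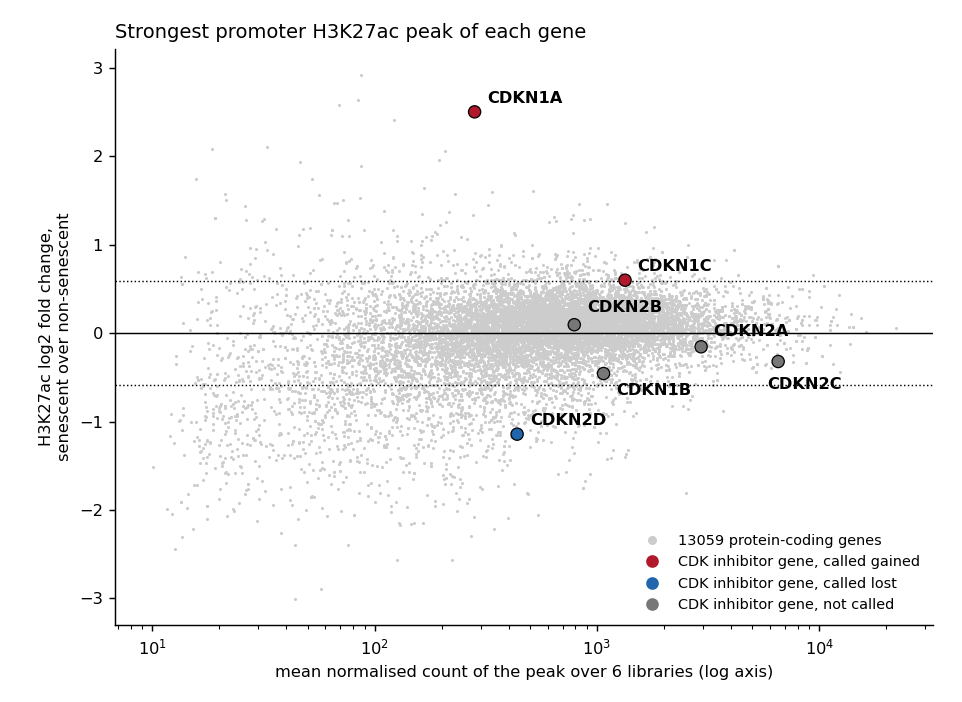
Mean normalised count (log axis) against H3K27ac log2 fold change, senescent over non-senescent, for the strongest promoter peak of 13059 protein-coding genes in grey and of the 7 CDK inhibitor genes in colour. CDKN1A stands at 2.50 with 3 genes above it, CDKN1C at 0.60 and CDKN2D at -1.14, and the other 4 members lie between the dotted lines of a 1.5-fold change. The CDKN2A point is its ARF-start peak, not its p16-start peak.

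Per kb of peak, the level at the strongest promoter peak was 383 counts for CDKN2A (its ARF start), 307 for CDKN2C, 216 for CDKN2B, 199 for CDKN1C, 168 for CDKN2D, 165 for CDKN1B and 59.4 for CDKN1A. These are means over both states, and their spread over libraries is not in the tables, so neighbours in this order were not tested against each other. Among genes with a like mean count, those with the closest log2 fold change to CDKN2D were CEP192 (-1.16), CENPV (-1.16) and CTNNA3 (-1.12) of 1948. For CDKN1C they were MKNK2 (0.60), SERTAD3 (0.59) and CHIC2 (0.61) of 1793. No gene of like mean count came close to CDKN1A. The nearest of 1482 were TRIM29 (1.59), FCGBP (1.58) and ARHGAP25 (1.45), each at least 0.91 lower on the log2 scale.

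The proteins that the inhibitors act on and with were given by a list of 28 cyclins, kinases, pocket proteins, E2F factors and regulators of the inhibitors, of which 25 had a promoter H3K27ac peak. At the strongest promoter peak, 13 were lost and 2 were gained, where 8.94% and 3.15% of all genes were, and their median log2 fold change was -0.60 against 0.04 over all genes. The losses took in 4 of 5 cyclin genes, 3 of 4 kinase genes and 4 of 8 E2F genes with a peak, each to be read against the 8.94% lost over all genes. The list was chosen with earlier results known. The lowest called values were E2F8 (-2.39), a repressive E2F factor, E2F2 (-1.94), an activating one, and CCNA2 (-1.69), the cyclin A of S phase. The gains were BMI1 (0.84), a Polycomb protein that represses CDKN2A, and RBL2 (0.78). The 3 pocket protein genes went different ways, with RBL2 gained, RBL1 lost (-1.13, SE 0.075) and RB1 not called (-0.15, SE 0.069). EZH2, the Polycomb enzyme, was lost (-1.03, SE 0.082). Of the kinases that INK4 proteins bind, CDK6 was lost (-0.71, SE 0.20, adjusted p = 0.0015) and CDK4 was not called (0.12, SE 0.081). MDM2, the ligase that ARF inhibits, was at 0.16 (SE 0.083, adjusted p = 0.119) and was not called.

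**Figure D4:**
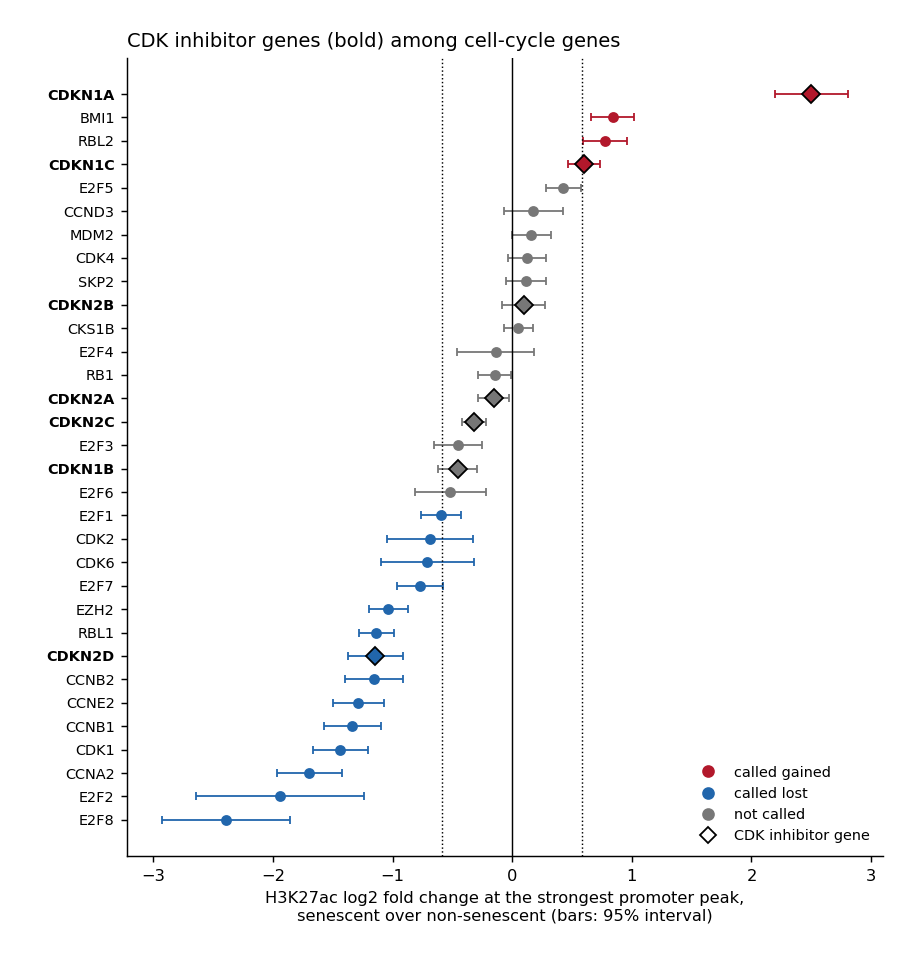
H3K27ac log2 fold change, senescent over non-senescent, at the strongest promoter peak of the 7 CDK inhibitor genes (diamonds, bold names) and 25 cell-cycle genes, with bars for the 95% interval. CDKN2D (-1.14) stands between the lost genes CCNB2 (-1.16) and RBL1 (-1.13), and CDKN1A (2.50) above every other gene of this plot. The CDKN2A diamond is its ARF-start peak, not its p16-start peak.

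All of the inhibitor genes had CTCF sites. Of 21 peaks, 16 had an adjusted p, and 1 was called gained and 1 lost, here with the fold limit of 1.5 and an adjusted p below 0.2. The CTCF table does not state its direction, which was assumed to be senescent over non-senescent as for H3K27ac. Among all CTCF peaks with an adjusted p, 2.99% were gained and 4.28% were lost. With 1 call in each direction, the members are not set apart from these shares. The gain lay in the gene record of CDKN1B, 2361 bp upstream of its nearest protein-coding start (chr12:12714474-12715007), with a mean of 27.5 counts. Its log2 fold change was 1.22 (SE 0.43, adjusted p = 0.086) and the implied mean rose from 16.6 to 38.5. The loss lay in the CDKN1C gene (chr11:2884848-2885693) with a mean of 58.3 counts, a log2 fold change of -0.68 (SE 0.28) and an adjusted p of 0.162. The CDKN1B gain rests on a low count, against a median of 58.6 over all CTCF peaks, and the CDKN1C loss on a count near that median. Neither passed an adjusted p of 0.05 or the test against a fold change of 1.5.

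The stronger CTCF sites were not called. The highest was the CDKN2B promoter site (chr9:22007551-22009625) with a mean of 490 counts, a log2 fold change of -0.24 (SE 0.11) and an adjusted p of 0.225. A site in AP1M2, 2667 bp from CDKN2D (chr19:10571726-10573339), had a mean of 390 counts and a log2 fold change of -0.41 (SE 0.15, adjusted p = 0.100). At CDKN1A, a site inside the gene (chr6:36679707-36681295) had a mean of 285 counts and a log2 fold change of -0.37 (SE 0.14, adjusted p = 0.102). It overlaps the gained H3K27ac promoter peak. The site nearest to the CDKN1A start had a mean of 8.81 counts, a log2 fold change of -0.10 and no adjusted p. In the start region of CDKN1C, the strongest site (chr11:2887770-2889620), 1995 bp upstream, was at -0.01 (SE 0.13), with an interval of -0.26 to 0.25.

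The remaining promoter sites were weaker. At the CDKN2D start the log2 fold change was -0.69 (SE 0.34, adjusted p = 0.257) and at the ARF start it was -0.56 (SE 0.27, adjusted p = 0.234), with means of 41.1 and 59.8 counts. A further site 485 bp beyond the ARF start was at -0.44 (SE 0.50, no adjusted p). The second CDKN1C site was at -0.39 (SE 0.34, adjusted p = 0.542), and the CDKN2C sites were at -0.42 (SE 0.31, adjusted p = 0.478) and -0.09 (SE 0.18, adjusted p = 0.823). The p16 start had no CTCF peak in the table and was the 1 promoter H3K27ac peak of 10 that overlapped none. Over all genes, 6093 of 11254 strongest promoter H3K27ac peaks (54.1%) overlapped a CTCF peak, so lacking one was common. Outside promoters, the strongest site of each gene that was not yet described was a CDKN1C site at -0.42 (SE 0.14, adjusted p = 0.066, mean 253), a CDKN1B site at 0.21 (SE 0.22, mean 124), a CDKN2B site at -0.005 (SE 0.22, mean 98.3), a CDKN2A site at -0.23 (SE 0.27, mean 80.8) and a CDKN2C site at -0.24 (SE 0.68, mean 11.2). The other 3, at CDKN1C and CDKN2B, had means between 6.17 and 112 counts.

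**Figure D5:**
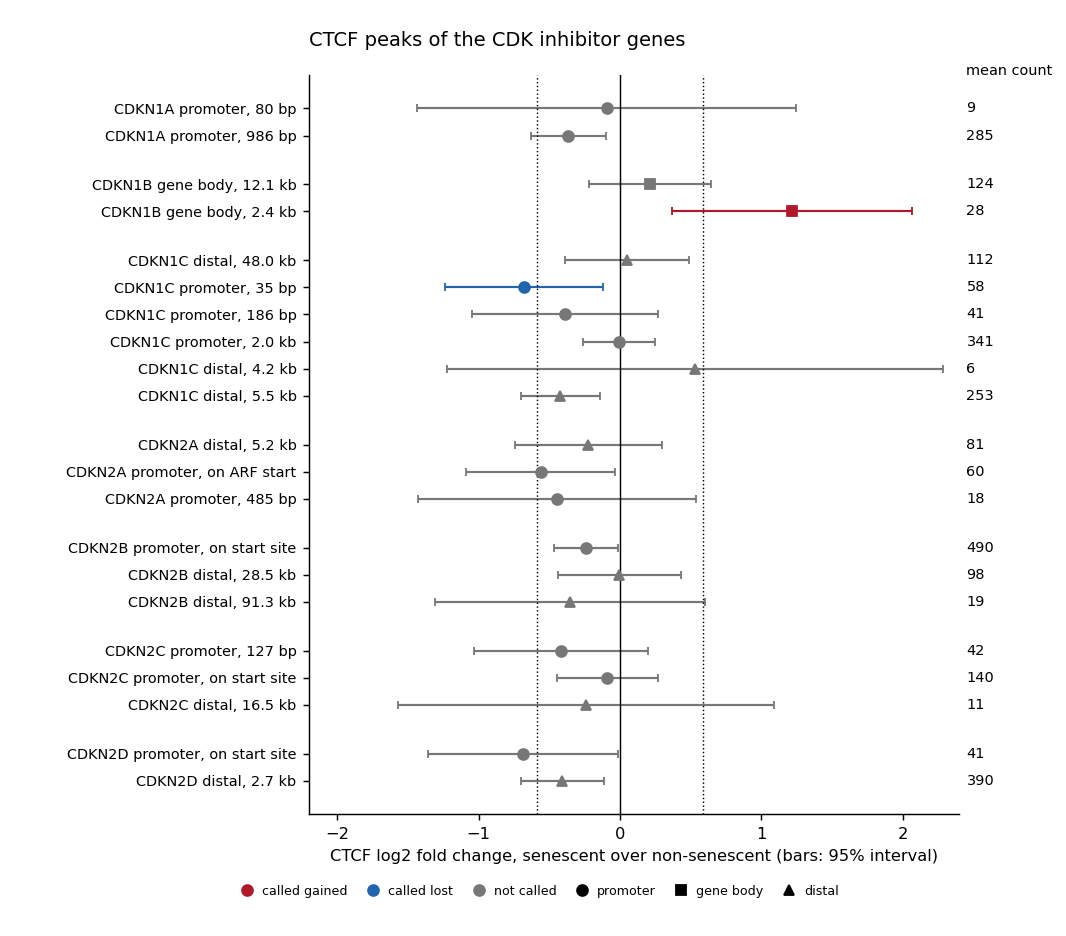
CTCF log2 fold change, senescent over non-senescent, at the 21 peaks of the 7 CDK inhibitor genes, with bars for the 95% interval and the mean normalised count at the right. All 11 promoter sites lie left of 0 as deposited, and 3 of them turn positive once the trend with GC content is taken out. The 2 called sites have wide intervals.

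All 11 promoter CTCF sites had a negative log2 fold change, with a median of -0.39. Negative values were common at promoters in this table: the strongest promoter CTCF peak of 9366 genes had a median of -0.17 and an upper quartile of 0.03. CTCF fold changes followed base composition across the whole table, however, with a median of 0.22 in the tenth of peaks lowest in GC and -0.31 in the tenth highest. When the median of peaks of like GC content outside promoters, enhancers and H3K27ac peaks was taken off, 8 of the 11 remained negative with a median of -0.14. The CDKN1C loss then went to -0.22 with an adjusted p of 0.812, while the CDKN1B gain was still called. Whether base composition accounts for the negative values at these promoters was not tested.

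Letters of the CTCF motif core, CCANNAGNNGGC on either strand, were found in 4 of the 21 sites, all of them at CDKN1C. Between 17.5% and 26.4% of all CTCF peaks cut to the lengths of these sites held it. They are printed from hg38 in the direction of the motif, with the core in capitals, first the site that was lost, then the 2 other promoter sites and the site in the KCNQ1 enhancer:
chr11:2885167-2885198, plus strand: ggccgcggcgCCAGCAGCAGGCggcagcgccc
chr11:2886207-2886238, minus strand: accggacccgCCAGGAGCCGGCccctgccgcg
chr11:2888542-2888573, minus strand: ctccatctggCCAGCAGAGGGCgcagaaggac
chr11:2837052-2837083, minus strand: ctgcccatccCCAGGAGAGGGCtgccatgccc
The third of these belongs to the strongest of the CDKN1C promoter sites, with a mean of 341 counts and a log2 fold change of -0.01. The last lies inside the gained H3K27ac peak in KCNQ1, where CTCF was at 0.05 (SE 0.22, adjusted p = 0.935).

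Listed enhancers were found at 4 of the 7 genes: CDKN1C, CDKN2A, CDKN2B and CDKN2C. Of the 5 regions listed in each state, 4 overlapped a region of the other state. The exceptions were the non-senescent region beyond CDKN2B and the senescent region at the end of the CDKN2C peak, both described above. The shares over all genes and over all listed enhancers were not worked out, so these counts describe the members alone. Enhancers listed in both states did not share a direction of H3K27ac: the log2 fold change was 0.95 at CDKN1C, 0.48 at CDKN2A, and -0.24 and -0.83 at CDKN2B. No region of senescence-specific Rb binding lay at a member. The nearest was 0.493 Mb from CDKN1C and the furthest of the nearest was 9.297 Mb from CDKN2D. The list holds regions of higher binding in senescent cells alone, so Rb bound alike in both states would not be in it. It has 2435 regions against 19676 protein-coding genes, and the share of all genes with a region was not worked out. The count of 0 is therefore not read as particular to the members.

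The line was checked by promoter H3K27ac. All 7 beta-cell genes examined had a peak, MAFA a weak one of 43.6 counts, while GCG of alpha cells and VIM and COL1A1 of mesenchyme had none. Of 2 acinar markers CPA1 had a peak (1498 counts) and PRSS1 had none. Of 2 duct markers KRT19 had a peak (913 counts), which was lost (-0.74), and CFTR had none. The part of these cells' markers in the values above was not tested.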

How the data were processed

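According to the methods of the study, reads were trimmed (Trim Galore) and aligned to hg38 (Bowtie2) by the authors, who found H3K27ac and H3K4me1 peaks by HOMER and those of CTCF and Rb by MACS2. DESeq2 was then run by the authors on raw counts per peak, senescent against non-senescent. Tool versions are not given in the sources used here. The deposited mean signal of a peak is the authors' average of size-factor-scaled read counts, so a change of a mark over the whole genome cannot be seen. The deposited tables also hold the log2 fold change with its standard error, the Wald score and the p-value, raw and adjusted by Benjamini-Hochberg, all as DESeq2 gave them to the authors. The deposited enhancer and Rb lists hold positions only. Both tables were given without counts per library, so the planned refit on counts was not made. They give no depth per library, only mean counts, which sum over peaks to 19239499 for H3K27ac and 6136424 for CTCF. The study's methods state a number of reads aimed at per sample. Of 51457 CTCF peaks, 11972 came without an adjusted p-value and were not called.

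The limits on fold change and adjusted p were those of the study. For CTCF the study kept only peaks that held the CTCF motif, and no such filter was applied here. The H3K27ac direction was read from the lists: the median log2 fold change was 0.54 in 2623 peaks of enhancers listed in senescent cells alone and -0.53 in 4291 of those listed in non-senescent cells alone. The CTCF table does not state its direction, and the same coding was assumed. With this coding 1690 CTCF peaks were lost and 1180 gained, and the study also reports more loci that lose CTCF than gain it. Intervals of 95% are the log2 fold change and its standard error on the normal scale. Implied means of each state were worked out from the deposited mean and fold change, with equal numbers of libraries, and are approximate. Positions were read as starting from 0 and are printed from 1. Promoter peaks were all described, with the called and the strongest of the other peaks of each gene. Genes named as like a member were the 3 closest in log2 fold change among those of like mean count. Pathway genes named were the highest and lowest of those called. RB1, RBL1, CDK4, CDK6, EZH2 and MDM2 were named outside this rule. The GC box, chosen after the promoters had been read, was counted in the RefSeq promoter sequences. The E2F and CTCF motif letters, chosen with the gene lists, were searched in hg38. One gene and 1 motif of these lists are not reported here. Of the 7 members, 6 matched a RefSeq promoter sequence. Scripts in Python 3.11.15 with pandas 2.3.3 and numpy 2.4.6 were tested on simulated data. The members and the lists were chosen with earlier results of these data known.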

Additional observations from a re-analysis of the deposited data

How the results depend on the processing

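The tables give no value per library. No paired analysis was possible because of this, and leaving out each replicate was not run. The 4 gained and 2 lost H3K27ac peaks became 2 and 1 with a fold change above 2 (both CDKN1A peaks and CDKN2D), and 2 and 1 in a Wald test against a fold change of 1.5 (the CDKN1A promoter, the CDKN1C enhancer and CDKN2D). With the adjusted p alone, 6 were gained and 5 lost, and with the nearest gene within 50 kb 1 was lost, as the CDKN2B peak lies further away. The 1 gained and 1 lost CTCF peaks were both 0 in the test against a fold change of 1.5 and with an adjusted p under 0.05. A fold change above 2 left 0 lost, the adjusted p alone gave 4 lost, and a mean count of at least 50 left 0 gained, with 12 peaks and 6 promoter peaks. Removing the GC trend left 0 lost CTCF peaks and turned 3 promoter sites positive, to 0.068 and 0.10 at CDKN1C and 0.21 at CDKN1A. Of the pathway genes, 1 was gained by the median over promoter peaks and 0 with a fold change above 2. Removing the GC trend was the only alternative that recomputed fold changes: all 20 H3K27ac peaks kept their direction and call, as did 17 of 21 CTCF peaks. Other windows, start sites, distance limits and count minimums only change which peaks are counted. The start-site calls of CDKN1A and CDKN2D held with a fold change above 2, against a fold change of 1.5 and with the GC trend removed.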
